A study of Mus musculus with 6 samples.

Results

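Stefins and cystatins, the protein inhibitors of papain-type cysteine proteases, were followed on 6 single-colour arrays of mouse double negative thymocytes. These are the early T cell precursors that carry neither CD4 nor CD8. The group of genes comprises Stfa1, Stfa2, Stfa3, Stfa2l1, Cstb, Cst3 and Cst7, and it was picked because Stfa3 and Stfa2l1 stood high in the comparison of genotypes described here. Every probe set that the platform annotation gives to exactly 1 of these symbols was taken, which yielded 6 of 45037 probe sets, for 5 of the 7 genes. Stfa3, Stfa2l1, Cst3 and Cst7 have 1 probe set each and Cstb has 2. No probe set is listed for Stfa2. Stfa1 is listed only on a probe set that also names a further stefin-like gene, Cstdc5, so that this probe set is described as shared and its signal is given to neither gene.

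Each of 3 arrays is labelled as an Egr1/Egr3 double knockout animal and each of 3 as a wild type animal, with amplified RNA of cells sorted by flow cytometry per the descriptions, although titles and source names give whole thymus. The sources used here give neither strain, age and sex nor the way the 2 genes were disrupted. Egr1 and Egr3 are early growth response genes, whose zinc finger products switch on targets after receptor signals in thymocytes. The comparison asks which transcripts differ between the genotypes at this stage.

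Cystatins bind in the active site cleft of lysosomal cysteine proteases such as cathepsins B, H, L and S and block it reversibly. Stefins (type 1 cystatins) lack a signal peptide and act inside the cell, and the mouse carries a cluster of stefin A genes on chromosome 16 where humans have a single one, CSTA. Transcripts of the mouse stefin A cluster are known from neutrophils and their precursors and from stratified epithelia. Cstb encodes stefin B, which most cells make. Cst3 encodes cystatin C, a secreted inhibitor that dendritic cells and macrophages make in quantity. Cst7 encodes cystatin F, which is sorted to endosomes and lysosomes of natural killer cells, cytotoxic T cells and myeloid cells and there restrains cathepsin C, the activator of granzymes. S100a8, against which the stefins were set, encodes a calcium-binding protein that fills the cytosol of neutrophils.

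The start regions of the 4 stefin A genes are shown to make plain how alike the copies in this cluster are. Most of each window lies outside the transcript, so it does not show what the array's probes bind. They come from RefSeq on the build GRCm38.p6, in which 6 of the 7 genes have an entry, and each runs from 250 bases before to 50 bases after the annotated start, 5′ to 3′ on the gene's strand. Capitals mark the 2 longest runs of bases that all 4 share, of 15 and 17 bases.
Stfa3, chr16:36455343-36455642, minus strand: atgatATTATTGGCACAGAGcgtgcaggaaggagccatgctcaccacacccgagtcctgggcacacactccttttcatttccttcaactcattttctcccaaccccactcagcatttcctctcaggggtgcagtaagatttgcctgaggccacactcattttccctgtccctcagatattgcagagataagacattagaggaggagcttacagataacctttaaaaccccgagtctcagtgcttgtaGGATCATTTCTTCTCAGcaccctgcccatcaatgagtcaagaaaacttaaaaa
Stfa2l1, chr16:36156561-36156860, plus strand: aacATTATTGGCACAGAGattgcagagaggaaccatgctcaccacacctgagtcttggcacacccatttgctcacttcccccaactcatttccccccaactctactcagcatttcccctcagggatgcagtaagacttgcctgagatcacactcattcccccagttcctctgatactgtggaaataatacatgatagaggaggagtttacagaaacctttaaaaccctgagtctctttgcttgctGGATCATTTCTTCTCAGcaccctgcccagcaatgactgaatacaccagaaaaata
Stfa1, chr16:36276898-36277197, plus strand: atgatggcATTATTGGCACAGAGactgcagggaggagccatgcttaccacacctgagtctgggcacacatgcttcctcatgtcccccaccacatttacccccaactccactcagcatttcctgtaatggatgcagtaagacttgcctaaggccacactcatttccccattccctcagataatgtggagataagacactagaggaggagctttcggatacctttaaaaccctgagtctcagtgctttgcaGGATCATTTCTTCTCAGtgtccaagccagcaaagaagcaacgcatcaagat
Stfa2, chr16:36408314-36408613, minus strand: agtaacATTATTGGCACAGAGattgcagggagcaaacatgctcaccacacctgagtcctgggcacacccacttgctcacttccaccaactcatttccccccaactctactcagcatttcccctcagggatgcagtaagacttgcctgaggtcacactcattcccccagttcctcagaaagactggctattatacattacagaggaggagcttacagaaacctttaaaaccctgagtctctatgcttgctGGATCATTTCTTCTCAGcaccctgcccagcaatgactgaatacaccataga
Between these 4 windows, in global alignments and over aligned bases without gaps, identity lay between 81.1% and 92.9% over the 6 pairs, with Stfa2l1 and Stfa2 the closest pair. Against the window of S100a8 it lay between 59.4% and 64.2%, and against those of Cst3 and Cst7 between 53.8% and 63.9%. The window of Cstdc5, the other gene on the shared probe set, was 96.4% identical to that of Stfa1. The run of 17 bases was found in 6 of 32544 distinct windows of this length (0.0184%). All were of stefin genes of this cluster (Csta3, Cstdc5, Stfa1, Stfa2, Stfa2l1 and Stfa3). The run of 15 bases was found in 5 (0.0154%), which are the same genes without Csta3. Both runs were picked because the 4 windows shown share them, so the matches in those 4 were fixed in advance. A further 5 motifs were searched on both strands. Neither form of the EGR core, GCGTGGGCG (in 0.618% of windows) or GCGGGGGCG (2.93%), occurred in any of the 4. The C/EBP half-site pair TTNNGCAA (10.8% of windows) occurred in that of Stfa1, and the AP-1 motif TGANTCA (7.79%) in that of Stfa3. The PU.1 motif GAGGAAGT (3.11%) occurred in none of the 4. These are matches of letters in a short window and say nothing of whether a factor binds.

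Some facts of the arrays bear on the values that follow. The brightest of 27 control probe sets for bacterial genes had intensities of 19.0 to 25.6 on the double knockout arrays and of 20.1 to 29.9 on the wild type arrays, a guide to the signal that a probe set can show with no transcript to bind. Ptcra, the pre-T cell receptor chain of this stage, read between 1056 and 1469 on the double knockout arrays and between 4154 and 5145 on the wild type arrays. Both Cd4 probe sets stayed between 3.03 and 10.1 on all 6 arrays. The CD8 genes did give signal, with Cd8a at 68.5 to 197 and Cd8b1 at 65.9 to 137, above the brightest bacterial control on every array. Egr1 itself read 1221 to 1757 on the arrays labelled double knockout, against 455 to 509 on the wild type arrays, so directions are stated for the libraries as labelled. For Egr3, 1 probe set read 12.5 to 55.4 on the double knockout arrays, against 30.5 to 34.2 on the wild type arrays. Another read 32.9 to 45.8, against 30.8 to 92.2, and neither passed the threshold. Where the Egr1 and Egr3 probe sets lie relative to the disrupted parts is not stated in the labels. The Y-linked gene Eif2s3y read 186 to 265 on the double knockout arrays, on which the X-linked transcript Xist read between 3910 and 6015. On wild type replicates 1, 2 and 3 Eif2s3y read 476, 13.2 and 0.625, and Xist 1439, 3977 and 5311. Another Y-linked gene, Kdm5d, did not repeat the Eif2s3y signal of the double knockout arrays. Its brightest probe set read 10.3 to 29.5 there, near the bacterial controls, and 144, 8.81 and 2.52 on wild type replicates 1 to 3. Whether the RNA on an array came from 1 animal alone was therefore not settled for the double knockout arrays and wild type replicate 1. Wild type replicate 3 stands apart in neutrophil transcripts, as given with S100a8 below, and in the erythroid genes Alas2 and Slc4a1. Counts without this array are given beside those with it. Without it, 7.24% of all genes were higher and 7.22% lower, against 4.14% and 2.84% on all 6 arrays. The small number of arrays, 3 a group, limits how precise any value can be. Of 21 tested genes of the double negative thymocyte list, 1 rose (the receptor chain Il7r, with 2757 to 2990 on the double knockout arrays and 843 to 1091 on the wild type arrays) and 3 fell (log2 changes of -1.89 for Ptcra, -1.20 for the receptor chain Il2ra and -0.72 for the terminal transferase gene Dntt), against 4.14% and 2.84% of all genes. Without wild type replicate 3 the counts of this list were 3 higher and 6 lower, without double knockout replicate 1 or with the replicate block 2 genes passed in all, and with array weights 11. Of the CD4 and CD8 genes only Cd8a and Cd8b1 were tested, as Cd4 was under the intensity filter. Neither of the 2 passed in the limma fit, adjusted or not, or without wild type replicate 3.

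Stfa3 read 505, 331 and 656 on double knockout replicates 1 to 3, against 27.3, 20.3 and 1.60 on wild type replicates 1 to 3. The groups were far apart, with the lowest double knockout array 12.1 times the highest wild type array, and the wild type signals lay near or under the level of the brightest bacterial controls. On the scale of log2(intensity + 16), on which the fit was made, the difference was 4.02 (SE 0.37, n = 3 and 3). Because of the offset of 16, this scale understates changes of dim probe sets.

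Stfa2l1, a stefin A-like gene of the same cluster, read 614, 231 and 761 on double knockout replicates 1 to 3, against 17.1, 34.7 and 10.5 on wild type replicates 1 to 3. Here too every double knockout array was above every wild type array, by at least 6.67 times, but double knockout replicate 2 stood well below replicates 1 and 3. The difference was 3.79 on the log2 scale (SE 0.42, n = 3 and 3).

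The probe set shared by Stfa1 and Cstdc5 read 629, 555 and 980 on double knockout replicates 1 to 3, against 68.7, 43.4 and 0.710 on wild type replicates 1 to 3. Its groups were likewise apart, with a difference of 4.01 on the log2 scale (SE 0.50, n = 3 and 3). All 3 stefin A probe sets thus showed the same split of the arrays. The probes' own sequences were not used here, so whether each reads 1 stefin gene or several near-identical ones was not tested.

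Cst7 had a smaller difference. It read 383, 382 and 540 on double knockout replicates 1 to 3, against 169, 229 and 126 on wild type replicates 1 to 3. The groups did not overlap, the lowest double knockout array being 1.67 times the highest wild type array, and the difference was 1.24 on the log2 scale (SE 0.29, n = 3 and 3).

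Cstb and Cst3 showed no such split. The brighter Cstb probe set read 3724, 3324 and 5120 on double knockout replicates 1 to 3, against 5041, 3824 and 3877 on wild type replicates 1 to 3. Its difference of -0.10 on the log2 scale had a 95% interval from -0.58 to 0.39. The dimmer one read 593, 436 and 737 on the double knockout arrays, against 506, 517 and 631 on the wild type arrays, a difference of 0.05 with an interval from -0.53 to 0.63. Cst3 read 2207, 1237 and 3045 on double knockout replicates 1 to 3, against 1721, 2327 and 1554 on wild type replicates 1 to 3. The groups overlapped, and the difference of 0.12 had an interval from -0.59 to 0.83. These intervals leave room for changes of under about 1 on the log2 scale in either direction for stefin B and cystatin C, and none of the 3 reaches the differences of Stfa3 or Stfa2l1.

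**Figure D1:**
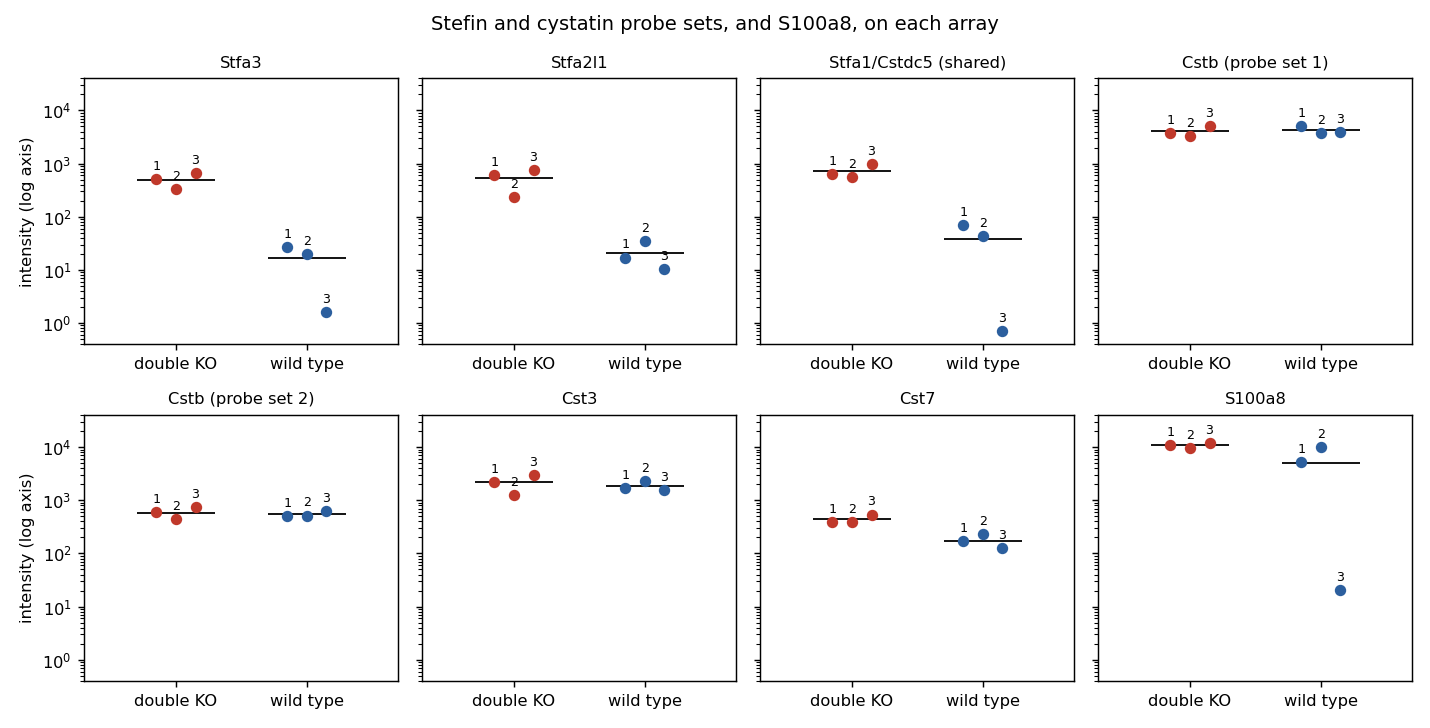
Intensity (log axis) of the stefin and cystatin probe sets and of S100a8 on each array, double knockout left of wild type. Points are single arrays numbered by replicate and lines are group means. The 3 stefin A probe sets read between 231 and 980 on the double knockout arrays and at most 68.7 on the wild type arrays, while S100a8 read 9927 on wild type replicate 2, within the range of the double knockout arrays.

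Of the 6 probe sets of the group, 3 passed the threshold of an adjusted p of 0.05 in the limma fit, namely those of Stfa3, Stfa2l1 and Cst7, all higher in the arrays labelled double knockout. Across all probe sets tested, 2.91% passed it as higher and 5.03% in either direction (among genes 6.98%). The intensities of the groups did not overlap for the same 3, with double knockout higher, against 13.2% of all probe sets tested (24.3% in either direction). As the group was picked on this comparison, these counts describe it and are no evidence of their own. Cst7 was no longer past the threshold on leaving out wild type replicate 1 or either double knockout replicate 1, 2 or 3, nor with the replicate number as a block. Within the double knockout arrays, all 6 probe sets and the shared one were lowest on replicate 2 and highest on replicate 3. Cst7 was nearly level on replicates 1 and 2, at 383 and 382. Of all probe sets tested, 25.6% had this order of 2, 1 and 3.

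S100a8 did not divide the arrays by genotype as the stefins did. It read 10775, 9680 and 12016 on double knockout replicates 1 to 3, against 5282, 9927 and 20.4 on wild type replicates 1 to 3. Wild type replicate 2 thus lay between double knockout replicates 2 and 1, while wild type replicate 3 was at the level of the bacterial controls. The difference of 3.10 on the log2 scale (SE 1.51, n = 3 and 3, limma adjusted p = 0.302 over all probe sets) did not pass. Without wild type replicate 3 it was 0.55 (SE 0.25, limma adjusted p = 0.2), and over all its alternatives the adjusted p lay between 0.168 and 0.499. S100a9, whose protein pairs with that of S100a8, read 4185, 2583 and 5033 on double knockout replicates 1 to 3, against 2349, 5537 and 6.89 on wild type replicates 1 to 3, so that wild type replicate 2 was the brightest of the 6 arrays.

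Set beside S100a8 array by array, the stefins shared some of its order, which does not show that they followed it. Both S100a8 and the stefin A probe sets were lowest on wild type replicate 3, where all of them lay under the brightest bacterial control. Within the double knockout arrays both had the order of replicates 2, 1 and 3 from low to high. That order is not particular to them, as Cst3, Cst7, both Cstb probe sets and 25.6% of all probe sets tested had it. On wild type replicate 2, S100a8 was 1.88 times its level on replicate 1. Stfa2l1 was 2.03 times its replicate 1 level there, and within each group its arrays had the same order as for S100a8. It read 34.7 on replicate 2, above the brightest bacterial control of 20.1. On replicate 1, at 17.1, it was under that control of 25.7, so the size of its rise is uncertain. Stfa3 had 0.742 times its replicate 1 level. At 27.3 and 20.3 on replicates 1 and 2 it was beside these controls, so its direction cannot be read. The shared probe set, above the controls on both, had 0.632 times its replicate 1 level.

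At nearly equal S100a8 the stefins differed widely. The mean of the double knockout arrays was 1.09 times wild type replicate 2 for S100a8, but 24.6 times for Stfa3, 15.4 times for Stfa2l1 and 16.6 times for the shared probe set. Whether these intensities include background is not known, as the sources used here give no probe summary. Stfa3 on wild type replicate 2 was beside the brightest control, so its ratio is imprecise and may err in either direction. For Cst7 the ratio was 1.90 times, for Cst3 0.930 times and for the Cstb probe sets 1.06 and 1.14 times. Double knockout replicate 2 and wild type replicate 2, with 9680 and 9927 for S100a8, read 331 and 20.3 for Stfa3. No correlation over the 6 arrays is given, since the stefins split them into the groups of 3 and S100a8 sets a single array apart from the other 5.

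**Figure D2:**
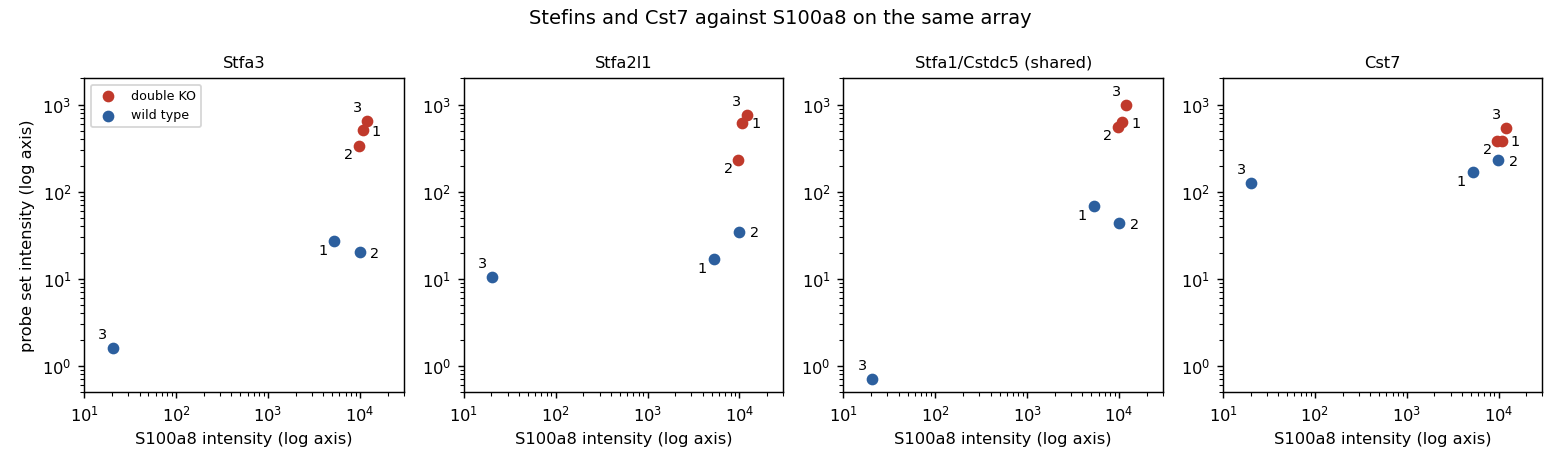
Intensity of each stefin A probe set and of Cst7 (vertical log axis) against S100a8 on the same array (horizontal log axis), red for double knockout and blue for wild type, numbered by replicate. At S100a8 levels of 9680 on double knockout replicate 2 and 9927 on wild type replicate 2, Stfa3 read 331 and 20.3.

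With log2 S100a8 as a covariate in the fit, the genotype difference was 3.53 for Stfa3 (SE 0.32), 3.47 for Stfa2l1 (SE 0.44), 3.17 for the shared probe set (SE 0.32) and 0.97 for Cst7 (SE 0.28). In that fit 3 of the 6 probe sets were past the threshold and higher, against 4.61% of all probe sets tested (9.48% in either direction). With the mean of the granulocyte list in its place, the differences were 3.55, 3.43, 3.24 and 0.95 in the same order, with 4.23% of all probe sets higher (8.67% in either direction). Without wild type replicate 3 they were 3.62 (SE 0.30), 3.57 (SE 0.43), 3.31 (SE 0.29) and 1.03 (SE 0.27), with 5.11% of all probe sets higher (10.2% in either direction). The differences of all 4 were thus smaller under each of these settings, and 3.17 or more for the stefin A probe sets. A covariate measured on 6 arrays, of which 1 is far from the rest, takes out a straight-line share only. Without wild type replicate 1 the differences were 4.25, 3.72, 4.47 and 1.22.

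Many other neutrophil genes, such as Camp, Lcn2 and Ngp, were like S100a8 lowest on wild type replicate 3. Among those tested, Padi4, Elane, Csf3r and Prtn3 were not, and read 167, 37.9, 57.5 and 16.5 on that array. Mpo was nearly level there and on double knockout replicate 2, at 29.7 and 29.8. Of 20 genes tested in the granulocyte list, 1 rose, Olfm4, a glycoprotein of a subset of neutrophils, and none fell, against 4.14% of all genes higher and 2.84% lower (median log2 change 0.99, against -0.01 over all genes). Olfm4 read 157, 204 and 118 on double knockout replicates 1 to 3, against 26.1, 18.7 and 2.37 on wild type replicates 1 to 3, a change of 2.51 (SE 0.33, limma adjusted p = 0.00142 over genes). Its double knockout mean was 8.58 times wild type replicate 2, the nearest in the list to the stefins. As Olfm4 on that array, at 18.7, was under the brightest bacterial control of 20.1, this ratio too is imprecise. Next by p stood Anxa1, which encodes annexin A1, with 1.02 times, the antimicrobial peptide gene Camp with 1.13 times and the siderophore-binding Lcn2 with 1.03 times, and none of the 3 passed. Only in 3 of the 20 genes (Olfm4, Padi4 and Elane) were all double knockout arrays above wild type replicate 2, where 32.7% of all genes were. The summed intensity of the list was 22585 to 31950 on the double knockout arrays, against 13230, 29301 and 738 on wild type replicates 1 to 3. Without wild type replicate 3, the median change of the list was 0.02, with 1 of 20 higher and 1 lower. In bulk RNA, fewer neutrophils and less of their RNA per cell cannot be told apart, and the part of neutrophil RNA in the stefin differences was not tested beyond these values.

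**Figure D3:**
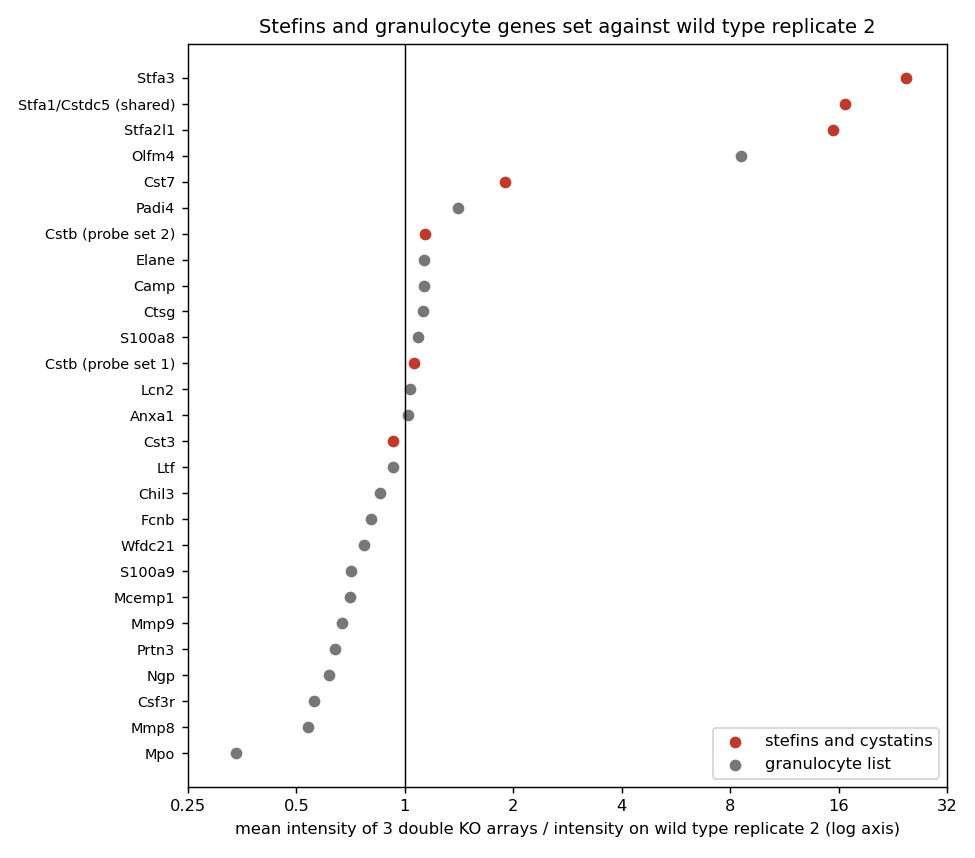
Mean intensity of the 3 double knockout arrays divided by the intensity on wild type replicate 2 (log axis), for stefins and cystatins in red and the 20 tested genes of the granulocyte list in grey. Stfa3, the shared probe set and Stfa2l1 lie at 24.6, 16.6 and 15.4, and Olfm4 at 8.58. The wild type replicate 2 signals of Stfa3 and Olfm4 were near the bacterial controls. The other granulocyte genes lie between 0.340 (Mpo) and 1.41 (Padi4).

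Genes of other cell types that make stefins or cystatins were read in the same way. Of 15 tested genes of the epithelial and keratinocyte list, none passed in the limma fit (median 0.02), 3 had an unadjusted p under 0.05, and in the 19 alternatives between 0 and 5 passed, with 1 of 14 higher without wild type replicate 3. This is the lineage in which stefin A is also known. Its keratin genes Krt5 and Krt14 read between 14.5 and 65.3 on all 6 arrays, while Krt1 and Krtdap were under the intensity filter. Some others of the list were above the bacterial controls on every array, such as Krt10 at 176 to 361, Lor at 97.4 to 183 and Krt8 at 42.4 to 106. The summed intensity of this list, most of it Ly6d and Epcam, was 5605 to 6424 on the double knockout arrays, against 3960, 4768 and 5965 on wild type replicates 1 to 3. By p its leading genes were Aire (-0.92), Krt18 (0.75), Epcam (1.48) and Dsp (0.63). Of 23 genes of the monocyte, macrophage and dendritic cell list, in which Cst3 is abundant, Cd14, the lipopolysaccharide coreceptor, rose by 1.44 (SE 0.35, limma adjusted p = 0.0313 over genes) and none fell (median -0.14), against 4.14% and 2.84% of all genes. None of the list passed in 7 of 19 alternatives, among them the replicate block and the fits without wild type replicate 1 or any double knockout replicate. Leaving out wild type replicate 3, 1 of 22 was higher and 3 were lower. The dendritic cell integrin Itgax had a change of -0.91 (limma adjusted p = 0.0914 over genes). Summed over that list, intensities were 10920 to 12711 on the double knockout arrays, against 12451, 18360 and 6134 on wild type replicates 1 to 3. In the B cell list 1 of 10 rose, the receptor chain Cd79b (1.10), and none fell, against the same shares of all genes. None passed with the replicate block or without any 1 array other than wild type replicate 3, and 1 was higher and 2 lower without that one. In the erythroid list none of 5 passed, adjusted or not, or without wild type replicate 3. This list had no gene past the threshold in 17 of 19 alternatives, and at most 1 in the others. Its summed intensity was 1213 to 1546 on the double knockout arrays, against 1397, 1296 and 5374 on wild type replicates 1 to 3. On wild type replicate 3 Alas2 read 3142 and Slc4a1 636, against 13.1 to 332 and 13.2 to 163 on the other arrays.

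Genes of the NK and cytotoxic cell list, a setting in which Cst7 is known, were in part higher beside it. Of 13 tested, 7 rose and none fell, against 4.14% and 2.84% of all genes, with a median log2 change of 0.85. The count was also 7 without wild type replicate 3, but 4 with the replicate block and without double knockout replicate 1 or 3 or wild type replicate 1. The granule membrane protein gene Nkg7 read 1929, 1243 and 2423 on double knockout replicates 1 to 3, against 216, 279 and 162 on wild type replicates 1 to 3 (change 2.96, SE 0.31, limma adjusted p = 0.000418 over genes). The granzyme gene Gzmb rose by 1.45 (SE 0.22), the receptor chain Klrd1 by 1.82 (SE 0.32) and the interleukin receptor chain Il2rb by 2.02 (SE 0.37). The granzyme gene Gzma (-0.08) and the perforin gene Prf1 (0.35) did not pass, and Ncr1 was under the intensity filter. The list's summed intensity, most of it Gzma, was 16461 to 16660 on the double knockout arrays, against 12498, 12436 and 16759 on wild type replicates 1 to 3. The part of these cells in the Cst7 difference was not tested.

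The proteases that cystatins bind were tested next. Of 9 papain-type cathepsins and legumain, 2 rose and none fell, against 4.14% and 2.84% of all genes, with a median log2 change of 0.43. They were cathepsin W, Ctsw, a protease of cytotoxic lymphocytes that is also in the NK list (1.48, SE 0.33, limma adjusted p = 0.0232 over genes), and cathepsin C, Ctsc, the protease that cystatin F restrains (1.02, SE 0.24, limma adjusted p = 0.0274 over genes). Ctsc read 2901, 3332 and 2296 on double knockout replicates 1 to 3, against 1401, 1621 and 1103 on wild type replicates 1 to 3, without overlap. Cathepsins B, H, L, S and Z and legumain had changes between -0.29 (Ctsb) and 0.49 (Ctss), and Ctso had 0.54. The 2 calls were lost with the replicate number as a block and without wild type replicate 1 or double knockout replicate 1, where none of the 9 passed, and 1 of the 9 passed without double knockout replicate 2 or 3. The count was 3 higher without wild type replicate 3.

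In a short, mixed list of other protease inhibitors, most genes tested also rose. The list was chosen with earlier results of these data known, so its counts describe it and are no evidence of their own. Of 6 tested in a list of 8, 5 rose and none fell, against 4.14% and 2.84% of all genes, with a median log2 change of 1.36. All double knockout arrays were above all wild type arrays in the 6, as in 14.3% of all genes (26.4% without overlap in either direction). Ctla2b and Ctla2a, which resemble the propeptide of cathepsins and inhibit cathepsin L-like enzymes, rose by 2.55 (SE 0.29, limma adjusted p = 0.000602 over genes) and 1.56 (SE 0.25). Ctla2b read 539, 661 and 804 on double knockout replicates 1 to 3, against 65.9, 130 and 108 on wild type replicates 1 to 3. Serpinb1a, an inhibitor of neutrophil serine proteases, rose by 2.00 (SE 0.37) and Serpinb6b, another intracellular serpin, by 1.16 (SE 0.26), and neither is a cystatin. Cast, the calpain inhibitor, rose by 0.92 (SE 0.24). The caspase inhibitor Xiap had 0.61 and did not pass. The count was 3 of 6 with the replicate number as a block and also without any 1 array other than wild type replicate 3, and 5 of 6 without that array.

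**Figure D4:**
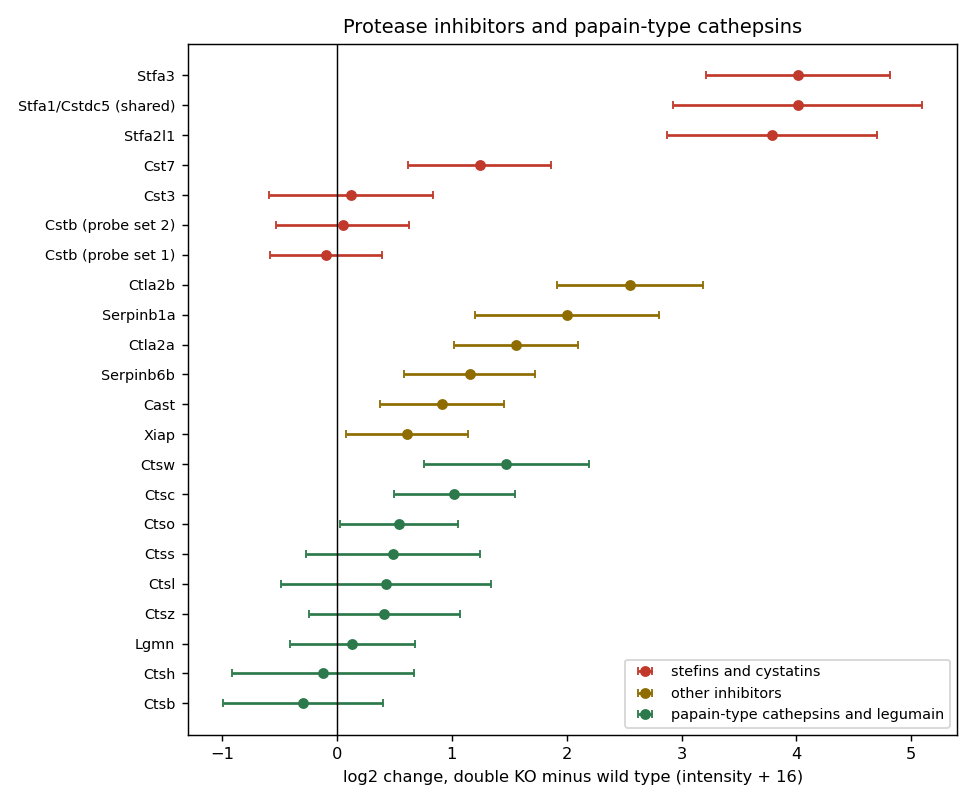
Change between double knockout and wild type arrays on the scale of log2(intensity + 16) for stefins and cystatins, other inhibitors, and papain-type cathepsins with legumain. Points are fitted differences and bars 95% intervals of the limma fit. The 3 stefin A probe sets lie between 3.79 and 4.02, above Ctla2b at 2.55 and every cathepsin.

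Outside the group, other genes of the cystatin superfamily gave little signal. Of 21 listed, 11 are named on the array and 2 were tested, the plasma proteins Fetub and Ahsg, with changes of 0.05 and -0.02. Csta1, a stefin A gene at the edge of the cluster, read at most 4.63 on the double knockout arrays and at most 14.8 on the wild type arrays. The cluster spans 12 protein-coding genes from Csta1 to Stfa3, and only some of them have probe sets with a single symbol.

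Genes next to the cluster on chromosome 16 did not share the stefins' change. Of 13 neighbours tested, none rose and 1 fell, Fam162a (-0.88, SE 0.24, limma adjusted p = 0.0487 over genes), and the median log2 change was 0.16. None of the neighbours passed in 14 of 19 alternatives, and 1 was lower without wild type replicate 3. All genes had 4.14% higher and 2.84% lower. Wdr5b had 0.78, Ccdc58 -0.67 and Kpna1 -0.37, and none of the 3 passed. Cd86, the nearest neighbour tested on the side of Stfa3, read 39.9, 37.6 and 40.8 on double knockout replicates 1 to 3, against 37.1, 29.5 and 22.2 on wild type replicates 1 to 3, a change of 0.28.

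**Figure D5:**
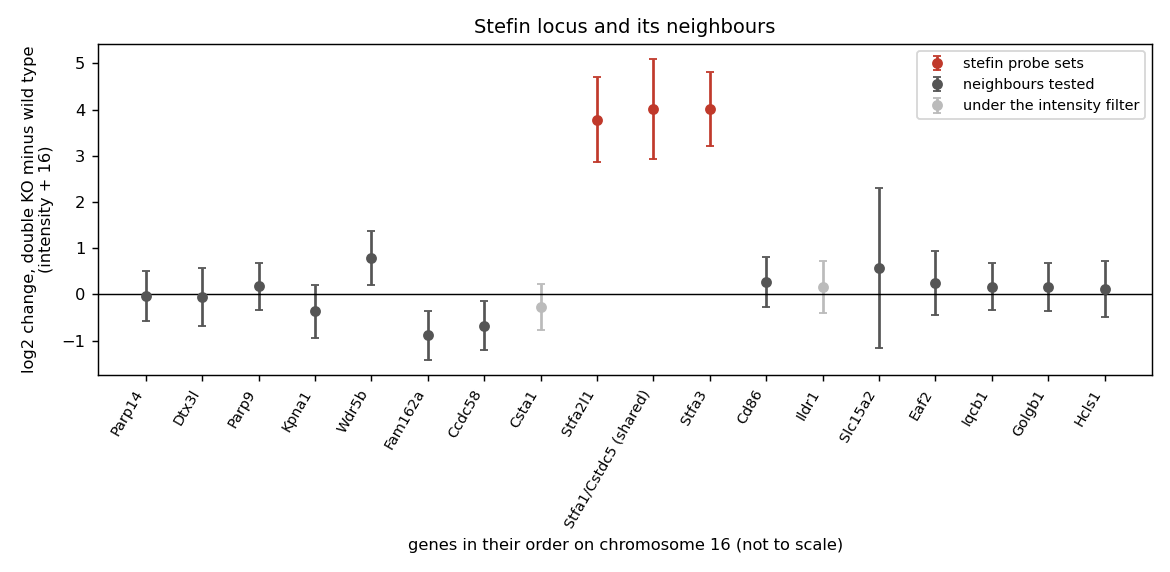
Change on the scale of log2(intensity + 16) for stefin probe sets and neighbouring genes in their order on chromosome 16, not to scale, with bars for 95% intervals. The probe set shared by Stfa1 and Cstdc5 is drawn at the place of Stfa1. The stefin probe sets stand at 3.79 to 4.02 and the neighbours between -0.88 and 0.78, with a wide interval for Slc15a2.

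The genes whose log2 values over the 6 arrays were most like those of Stfa3 were Ppp3ca, Septin8, Usp2, Syt13, Samhd1 and Serac1, with Pearson r between 0.996 and 0.999 among 13182 genes searched. For Stfa2l1 they were Agpat2, Nkg7, Pxmp4, Zfp53, Rgl2 and Sidt2, with r between 0.994 and 0.997. When each array was taken as its deviation from its group mean, which removes the genotype difference, the leading genes were Lipa, D2hgdh, Rttn, Paxbp1, Fzd4 and Eif3c for Stfa3 (r from 0.998 to 0.999) and Ninj2, Alad, Gla, Chchd3, Mcm8 and Rnf10 for Stfa2l1 (r from 0.998 to 1.00). With only 6 arrays such values are common, as 548 genes had r above 0.9 with Stfa3 and 559 with Stfa2l1 in log2 values, and 1218 and 560 in deviations. No weight is therefore given to which genes lead.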

How the data were processed

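The deposited table holds 1 linear intensity for each of 45101 probe sets on each of 6 arrays. The middle 96% of these intensities averages 150 on each array in the deposited table, so the authors' values had a common scale. The sources used here name no software and give no probe summary or detection calls. Groups follow the sample labels.

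Leaving out 64 control probe sets, log2(intensity + 16) was centred on each array's median (medians differed by 0.126). Probe sets under the 40th percentile of mean log2 value (intensity 13.2) were not tested, which left 27022. Genotypes were compared with limma 3.58.1 in R 4.3.3 (lmFit, eBayes with an intensity trend), with Benjamini-Hochberg adjustment at 0.05. For lists, each gene's brightest probe set was refitted over 13187 genes. Symbols were updated through RefSeq (GRCm38.p6), and 34741 of 34945 matched. Start regions were aligned with Biopython 1.88.

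The members and lists were chosen with earlier results of these data known, so counts within them are descriptions. Named are all members, S100a8, S100a9, in each list at most 4 genes by p, and the 6 most alike genes. Any other gene was named after its values were seen. Alternatives covered centring, offsets, filters, variance settings, the replicate block, each array left out, 2 neutrophil covariates, the probe set rule and, added after seeing the data, gene calls from the probe set fit.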

Additional observations from a re-analysis of the deposited data

How the results depend on the processing

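The differences of Stfa3, Stfa2l1 and the shared probe set kept their direction and stayed past the threshold in all 17 alternatives at the level of probe sets, with ranges of 2.77 to 5.34, 2.70 to 4.58 and 2.97 to 5.30 on the log2 scale, the lowest with an offset of 64 and the highest with an offset of 1. Cst7 ranged from 0.95 to 1.47 and stayed past it in 12 of 17. Cst3 and both Cstb probe sets passed in none. The count of 6 probe sets past the threshold was 3, and 2 in the 5 alternatives in which Cst7 was lost.

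The count of all probe sets past the threshold, 1358, was 3417 with array weights, 573 with the replicate number as a block, 2561 with S100a8 and 2344 with the granulocyte mean as a covariate. With 1 array left out it ranged from 376 to 2744: 376, 611 and 694 without double knockout replicates 1, 2 and 3, and 713, 699 and 2744 without wild type replicates 1, 2 and 3. The count of list genes past it, 21, was 42 with array weights, 10 with the block and 34 with S100a8 as a covariate. It ranged from 10 to 34 with 1 array left out: 10, 12 and 13 without double knockout replicates 1, 2 and 3, 11 and 34 without wild type replicates 1 and 3, and 19 without replicate 2. A fit without 1 array has fewer samples, and otherwise the cause was not tested. The change of S100a8 ranged from 0.55 to 4.63 without wild type replicates 3 and 2, and was not fitted with a neutrophil covariate.

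The replicate numbers share only a number: arrays of the same number correlated in their deviations from group means at -0.0583, -0.165 and -0.334 over 13187 genes. With the block 2 of the 6 probe sets passed. Signals of the stefins on the wild type arrays near the bacterial controls limit how far their fold changes can be read.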
